A study of Danio rerio with 6 samples.

Results

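Glycolysis breaks glucose down to pyruvate in the cytosol, and lactate dehydrogenase turns pyruvate into lactate when the reduced cofactor must be recycled. Most steps are served by several isozymes, enzymes that catalyse the same reaction but come from different genes, and zebrafish often carry an additional a and b copy of each. The set described here was 33 genes of glucose uptake and glycolysis, taken as the rows of the deposited table whose gene name equals a listed name, out of 32266 genes in all. All 33 were found, and they cover 12 steps, from the glucose transporters to lactate dehydrogenase.

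RNA was sequenced from the fin fold of zebrafish larvae 3 days old, the thin sheet of skin and mesenchyme around the tail. The groups were uncut folds (n = 3 libraries) and folds taken 4 h after amputation (n = 3 libraries). The descriptions of both groups name DMSO, a solvent, and no strain, transgene or drug is given. The labels do not say whether replicates were separate groups of animals; if they were not, the spread behind each p-value is technical. Total counts per library ran from 11216130 to 23019556. Markers of the labelled tissue were abundant: those of the superficial epidermis summed to 38790 to 70009 CPM (counts scaled to a common library size with TMM factors) and those of fin mesenchyme to 30146 to 72941 CPM over the 6 libraries. Transcripts of skeletal muscle, at 2628 to 3869 CPM, were also present.

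Amputated folds held more transcript of at least 1 gene in most of the 12 steps, while another gene of some of these steps was lower. Of the 33 genes, 30 had enough counts to be tested. In edgeR's quasi-likelihood test 10 were higher and 4 were lower 4 h after amputation, at a Benjamini-Hochberg adjusted p under 0.05 over all 17883 genes tested. The genes that rose were hk2, gpia, pfkpa, aldoaa, aldocb, pgk1, pgam1a, eno1b, pkma and ldha, and those that fell were hk1, pfklb, aldoab and eno3. At least 1 gene rose in 9 of the 12 steps, and in 4 of these, hexokinase, phosphofructokinase, aldolase and enolase, another gene fell. Steps hold up to 5 genes, and no background was computed for counts of steps, so these counts are a description only. Neither occurred among the glucose transporters, the triosephosphate isomerases and the glyceraldehyde-3-phosphate dehydrogenases.

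The background in this comparison was high: 20.8% of all tested genes were higher and 19.6% were lower, 40.4% together. Among the tested members 33.3% were higher, 13.3% lower and 46.7% called either way. The median log2 fold change (amputated over uncut) was 0.05 over the members and 0.003 over all tested genes, and the median of its absolute value was 0.27 over the members and 0.33 over all tested genes. The share of higher members lay above the background and the share of lower members below it, while their changes were of ordinary size for these libraries. The members were also more abundant, with a median level of 30.1 CPM against 12.5 CPM over all tested genes. Small changes are easier to call at higher counts, and the shares were not matched for level. With libraries scaled by their totals alone, which moves the median of all tested genes to 0.26, the members split into 14 higher and 2 lower. The background shares above hold for TMM scaling only. No share over all tested genes was computed for library totals alone, so counts under that scaling have no background beside them. Without amputated replicate 3, 2 members were lower. Without uncut replicate 1, the library with the highest eno3, gapdh and gapdhs levels, 11 members were higher and 4 lower. A total of 9 calls, 7 higher (hk2, gpia, pfkpa, aldocb, pgk1, pgam1a and pkma) and 2 lower (hk1 and pfklb), kept their direction and stayed past the threshold in each of 12 alternative fits. Among the steps with calls in both directions, only hexokinase and phosphofructokinase kept a call in each direction in all of these fits.

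**Figure D1:**
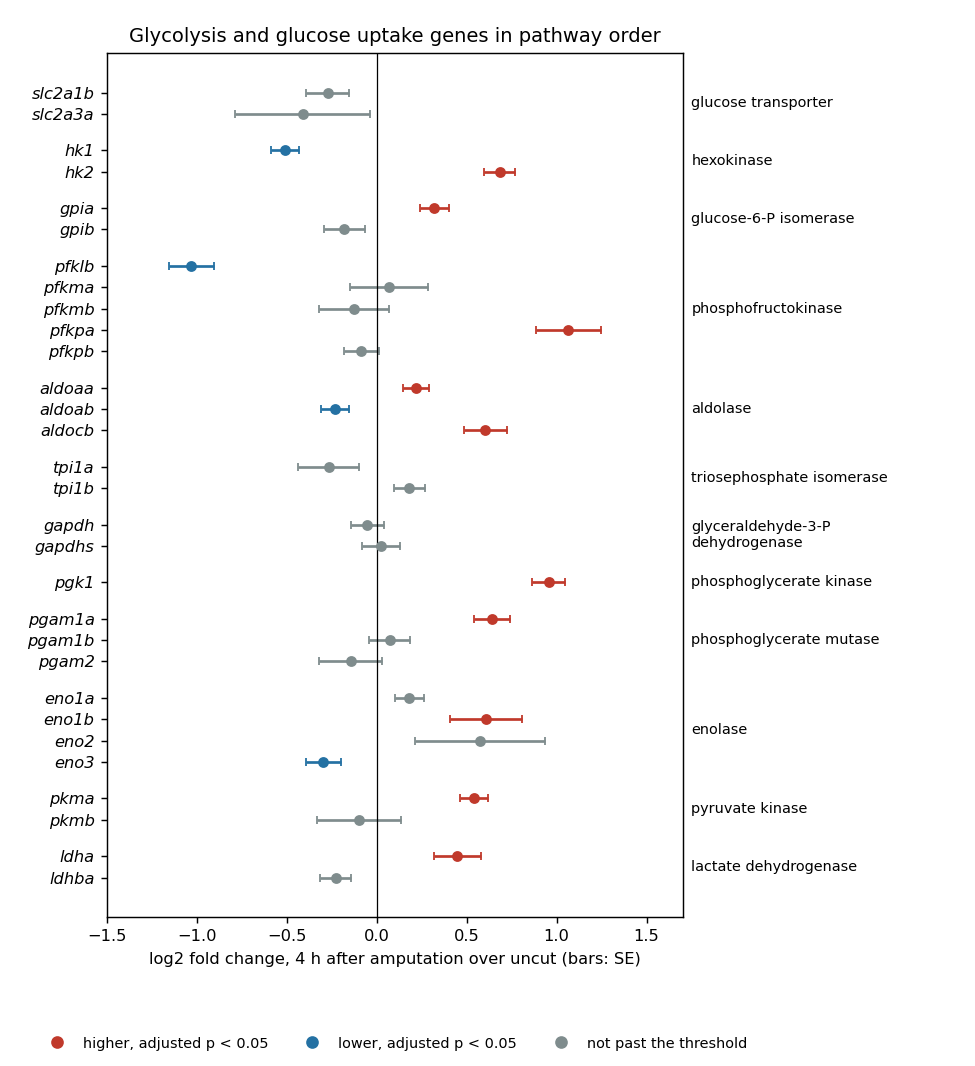
Log2 fold change of the 30 tested members, amputated over uncut, with its standard error, in pathway order from glucose transporters to lactate dehydrogenase. Members past the threshold are red (10 higher) or blue (4 lower), and red and blue points stand in the same step for hexokinase, phosphofructokinase, aldolase and enolase.

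Glucose enters cells through transporters of the SLC2 family. The gene slc2a1b, 1 of a pair of copies of the basal transporter GLUT1, had 32.9, 40.5 and 43.0 CPM in uncut replicates 1, 2 and 3 and 28.9, 36.7 and 30.6 CPM in amputated replicates 1, 2 and 3. The groups overlapped, and the log2 fold change of −0.27 ± 0.12 (SE) did not pass (edgeR adjusted p = 0.0891). With replicates treated as blocks it did pass (−0.27, edgeR adjusted p = 0.0267). It also passed at −0.37 when uncut replicate 1 was dropped (edgeR adjusted p = 0.0125) and at −0.38 when amputated replicate 2 was dropped (edgeR adjusted p = 0.0403). The other copy, slc2a1a, had 1, 1 and 0 counts in the uncut libraries and 5, 1 and 3 in the amputated ones, too few to test. For slc2a3a, a relative of the mammalian neuronal transporter GLUT3, levels were 0.93 to 0.99 CPM in uncut and 0.38 to 0.99 CPM in amputated libraries. Its log2 fold change of −0.41 ± 0.38 did not pass (edgeR adjusted p = 0.413), and its standard error shows how little these few counts resolve.

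Hexokinase traps glucose in the cell as glucose-6-phosphate, and its isozyme genes moved in opposite directions. The gene hk1 (chromosome 13, 22842438 to 22877363), the housekeeping isozyme in mammals, had 142.8, 143.3 and 138.5 CPM in the uncut and 97.1, 94.9 and 106.1 CPM in the amputated libraries. Its fall of 0.51 ± 0.08 on the log2 scale left every amputated library below every uncut one (log2 fold change −0.51, edgeR adjusted p = 0.00025). The gene hk2 (chromosome 5, 13370084 to 13503972), the insulin-responsive isozyme of mammalian muscle, had 44.4, 43.2 and 38.3 CPM in the uncut and 65.3, 71.6 and 65.8 CPM in the amputated libraries. It rose by 0.68 ± 0.09, or 1.61-fold (edgeR adjusted p = 7.1e-05), again without overlap. Positions are printed as deposited; no source used here names the genome build behind them.

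The balance between the pair can be read inside each library, where no scaling between libraries is needed. The log2 ratio of hk1 to hk2 counts was 1.68, 1.73 and 1.85 in the uncut libraries and 0.57, 0.41 and 0.69 in the amputated ones. The difference was −1.20 ± 0.10 (SE), with p = 0.1 in an exact two-sided permutation test, the smallest that 3 against 3 libraries allow, and 0.162 after adjustment over 13 paralog pairs. As a share of the hexokinase counts, which depends on transcript length as well as on number and is compared here only between libraries, hk2 took 21.7% to 23.7% in uncut and 38.3% to 43.0% in amputated folds. The summed level of both genes was 183.5 ± 5.81 CPM (SD, n = 3) in uncut and 167.0 ± 4.75 CPM (SD, n = 3) in amputated folds, without overlap, but with library totals alone the amputated libraries were the higher ones (ratio of means 1.09).

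Glucose-6-phosphate isomerase makes fructose-6-phosphate. Here gpia (chromosome 25, 35408675 to 35434057) rose by 0.32 ± 0.08 (edgeR adjusted p = 0.00739), from 66.6, 64.6 and 61.7 CPM to 85.9, 77.1 and 77.7 CPM in replicates 1, 2 and 3. The lowest amputated library lay above the highest uncut one. Its paralog gpib was at −0.18 ± 0.11 (edgeR adjusted p = 0.232), with overlapping groups between 13.4 and 17.8 CPM. The annotated span of gpib covers 9 other genes of the table, among them cox5ab, and the library kit did not mark strand, so its reads are less certain.

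Phosphofructokinase, the committed step and main control point of the pathway, showed the widest spread between isozymes. Its active form is a tetramer of subunits that mammals name for liver (PFKL), muscle (PFKM) and platelet (PFKP). The liver-type gene pfklb (chromosome 11, 44869603 to 44895836) had 39.5, 39.2 and 48.3 CPM in the uncut and 20.4, 17.5 and 23.9 CPM in the amputated libraries. It fell by 1.03 ± 0.13 on the log2 scale (log2 fold change −1.03, edgeR adjusted p = 5.2e-05), the only member to fall by at least 1, against 3.17% of all tested genes. The platelet-type gene pfkpa (chromosome 24, 3931994 to 3972265) had 5.34, 8.89 and 7.001 CPM in the uncut and 15.7, 16.8 and 12.5 CPM in the amputated libraries. It rose by 1.06 ± 0.18 (edgeR adjusted p = 0.000579), the only member to rise by at least 1, against 4.53% of all tested genes. Neither pair of groups overlapped.

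The copy of pfkpa did not follow it. The gene pfkpb stayed between 20.7 and 22.7 CPM in uncut and 19.7 and 22.1 CPM in amputated folds (−0.09 ± 0.10, edgeR adjusted p = 0.515). The log2 ratio of pfkpa to pfkpb counts was −2.07, −1.30 and −1.55 in uncut and −0.49, −0.23 and −0.67 in amputated libraries, a difference of 1.18 ± 0.26 (exact two-sided permutation p = 0.1, the smallest possible). Of the muscle-type genes, pfkma was at 0.07 ± 0.22 and pfkmb at −0.13 ± 0.20, with edgeR adjusted p of 0.836 and 0.643. As shares of the counts of the 5 phosphofructokinase members, pfklb went from 51.1% to 59.2% in uncut folds to 29.2% to 38.2% in amputated ones, and pfkpa from 7.21% to 11.6% to 20.0% to 28.01%. The summed level of the 5 genes was 77.5 ± 3.88 CPM (SD, n = 3) in uncut and 62.3 ± 2.22 CPM (SD, n = 3) in amputated folds, without overlap, while with library totals alone the groups overlapped (ratio of means 0.96). A sixth subunit gene outside the set, pfkla, was at −0.28 ± 0.12 (edgeR adjusted p = 0.0864). It was called lower in the blocked fit (−0.28, edgeR adjusted p = 0.0432) and when uncut replicate 1 was dropped (−0.41, edgeR adjusted p = 0.00448).

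**Figure D2:**
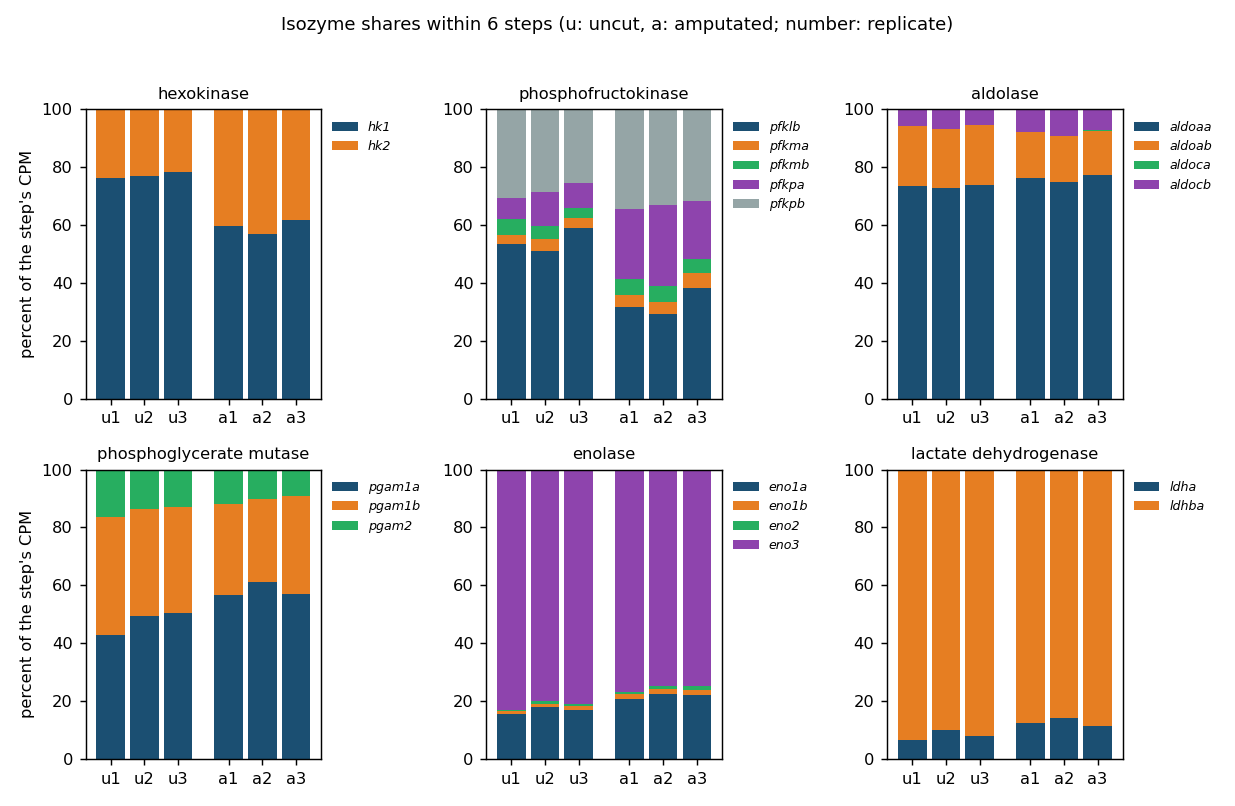
Share of each isozyme gene in the summed CPM of its step, in percent, for 6 steps, with 1 bar for each of the 3 uncut (u) and 3 amputated (a) libraries. The share of hk2 was 38.3% to 43.0% in amputated against 21.7% to 23.7% in uncut libraries, and pfklb gave way to pfkpa in the phosphofructokinase panel.

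Aldolase splits fructose-1,6-bisphosphate into triose phosphates. The brain-type gene aldocb (chromosome 21, 39585912 to 39616539) rose by 0.60 ± 0.12 (edgeR adjusted p = 0.00146), from 14.8, 17.2 and 14.3 CPM to 23.5, 26.2 and 21.2 CPM. The pair of copies of ALDOA, the muscle and general type of mammals, parted by small amounts. The gene aldoaa had 195.3, 188.5 and 194.3 CPM in uncut and 228.7, 217.2 and 227.1 CPM in amputated libraries, a rise of 0.22 ± 0.07 (edgeR adjusted p = 0.030). Its copy aldoab had 55.5, 52.9 and 54.0 CPM in uncut and 47.1, 46.3 and 44.7 CPM in amputated libraries, a log2 fold change of −0.23 ± 0.08 (edgeR adjusted p = 0.0299). The groups of both genes were separate, but each call was lost when any library other than uncut replicate 1 was left out, with edgeR adjusted p up to 0.111 for aldoaa and 0.0947 for aldoab. With library totals alone aldoab was at 0.02.

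Inside each library the pair was also apart. The log2 ratio of aldoaa to aldoab counts was 1.81, 1.83 and 1.85 in uncut and 2.28, 2.23 and 2.34 in amputated libraries, a difference of 0.45 ± 0.04 (exact two-sided permutation p = 0.1, the smallest possible). The remaining member, aldoca, had 2 counts over the uncut and 9 over the amputated group, too few to test. Summed over the 4 members, aldolase stood at 262.3 ± 3.43 CPM (SD, n = 3) in uncut and 294.1 ± 4.90 CPM (SD, n = 3) in amputated folds. Amputated libraries all lay above the uncut ones.

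No gene of the next 2 steps passed. Triosephosphate isomerase interconverts the triose phosphates: tpi1b was at 0.18 ± 0.09 (edgeR adjusted p = 0.115) and tpi1a at −0.27 ± 0.17 (edgeR adjusted p = 0.234). The groups did not overlap for either, with tpi1b at 67.0 to 81.5 CPM in uncut and 83.0 to 85.5 CPM in amputated libraries. Without uncut replicate 1, tpi1b passed at 0.26 (edgeR adjusted p = 0.0179), and with library totals alone at 0.44 (edgeR adjusted p = 0.00114). Its span overlaps lpcat3, which itself rose by 0.58 (edgeR adjusted p = 0.000605).

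Glyceraldehyde-3-phosphate dehydrogenase reduces NAD while it adds phosphate, and gapdh is a common reference gene. The level of gapdh was 96.9, 77.9 and 80.8 CPM in uncut and 84.3, 81.5 and 80.3 CPM in amputated libraries (−0.05 ± 0.09, edgeR adjusted p = 0.674). For gapdhs, named after the sperm isozyme of mammals, it was 399.8, 325.7 and 302.4 CPM in uncut and 379.5, 330.6 and 335.6 CPM in amputated libraries (0.02 ± 0.11, edgeR adjusted p = 0.877). Uncut replicate 1 was the highest library for both. With library totals alone gapdhs passed at 0.28 (edgeR adjusted p = 0.0318), close to the general shift of 0.26 under that scaling.

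The phosphoglycerate kinase gene pgk1 (chromosome 21, 37761018 to 37776965), which encodes the first ATP-yielding enzyme of the pathway and is the sole member for its step, had the smallest adjusted p of the set. It had 59.0, 56.2 and 47.3 CPM in the uncut and 107.5, 103.2 and 105.4 CPM in the amputated libraries. Each amputated library was above each uncut one, and the rise was 0.96 ± 0.09, or 1.94-fold (edgeR adjusted p = 9.2e-06). Leaving out each library in turn gave 0.86 to 1.02.

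Phosphoglycerate mutase moves the phosphate from carbon to carbon. The gene pgam1a (chromosome 13, 31262742 to 31267537) rose by 0.64 ± 0.10 (edgeR adjusted p = 0.00034), from 20.8, 25.1 and 21.4 CPM to 34.1, 37.5 and 33.8 CPM, without overlap. Its copy pgam1b was at 0.07 ± 0.11 (edgeR adjusted p = 0.657) and the muscle type pgam2 at −0.15 ± 0.18 (edgeR adjusted p = 0.545), both with overlapping groups. The log2 ratio of pgam1a to pgam1b was higher in amputated libraries by 0.57 ± 0.16 (exact two-sided permutation p = 0.1, the smallest possible). The span of pgam2 overlaps rpl17, a ribosomal protein gene with 78833 counts over the 6 libraries against 721 for pgam2, so its reads are uncertain.

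Enolase makes phosphoenolpyruvate. The beta type eno3, which is the muscle enolase of mammals, had 207.9, 167.5 and 165.8 CPM in uncut and 155.8, 142.2 and 142.6 CPM in amputated libraries. Its fall of 0.30 ± 0.10 (log2 fold change −0.30, edgeR adjusted p = 0.0279) depended on several libraries. Dropping uncut replicate 1 reduced the log2 fold change to −0.18 (edgeR adjusted p = 0.0724). Dropping amputated replicate 2 or 3 left it at −0.27 or −0.28 with an edgeR adjusted p of 0.0966 or 0.0889, and library totals alone gave −0.04. The alpha type eno1a was at 0.18 ± 0.08 and did not pass (edgeR adjusted p = 0.0988), although its amputated libraries, at 41.9 to 42.4 CPM, all lay above the uncut ones at 34.8 to 38.7 CPM. The scarcer copy eno1b rose by 0.61 ± 0.20 (edgeR adjusted p = 0.0304), from 2.44, 1.95 and 2.33 CPM to 3.42, 3.46 and 3.27 CPM. That call was lost when any library other than uncut replicate 1 was left out (edgeR adjusted p up to 0.128). It was also lost in DESeq2 as run here (adjusted p = 0.107), but passed in the authors' deposited DESeq2 results (adjusted p = 0.0277). The neuronal type eno2, at 0.72 to 2.83 CPM, was at 0.58 ± 0.36 (edgeR adjusted p = 0.229). The span of eno3 overlaps eif4e2rs1, which rose by 0.53 (edgeR adjusted p = 0.00154).

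Pyruvate kinase closes the pathway and yields ATP. The gene pkma (chromosome 18, 1014890 to 1059194) had 90.1, 87.0 and 78.7 CPM in the uncut and 125.3, 123.3 and 124.2 CPM in the amputated libraries. The rise was 0.54 ± 0.08, or 1.46-fold (edgeR adjusted p = 0.000191), with clearly separate groups. Its copy pkmb, at 6.14 to 11.1 CPM in uncut and 5.91 to 9.41 CPM in amputated libraries, was at −0.10 ± 0.23 (edgeR adjusted p = 0.766). The liver and red cell type pklr had 20 counts over the uncut and 36 over the amputated group and was not tested.

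Lactate dehydrogenase is a tetramer of subunits that mammals name for muscle (LDHA) and heart (LDHB). The gene ldha (chromosome 25, 25028201 to 25099874) had 17.2, 24.6 and 19.7 CPM in the uncut and 29.6, 29.4 and 25.5 CPM in the amputated libraries. It rose by 0.45 ± 0.13 (edgeR adjusted p = 0.0155), and the edgeR adjusted p was 0.0579 when amputated replicate 1 was dropped and 0.0605 when amputated replicate 2 was. Its span overlaps tsg101a, which rose by 0.31 (edgeR adjusted p = 0.0302). The heart-type gene ldhba had 249.7, 220.0 and 225.7 CPM in uncut and 210.4, 181.2 and 201.9 CPM in amputated libraries, without overlap. Its log2 fold change of −0.23 ± 0.09 just missed the threshold (edgeR adjusted p = 0.0514). Treating replicates as blocks took it past (−0.23, edgeR adjusted p = 0.0124), and it passed in the authors' deposited table (adjusted p = 0.0331), but was at 0.03 with library totals alone. The log2 ratio of ldha to ldhba was higher in amputated libraries by 0.70 ± 0.23 (exact two-sided permutation p = 0.1, the smallest possible), and ldha took 6.44% to 10.1% of the counts of the pair in uncut and 11.2% to 13.97% in amputated folds.

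**Figure D3:**
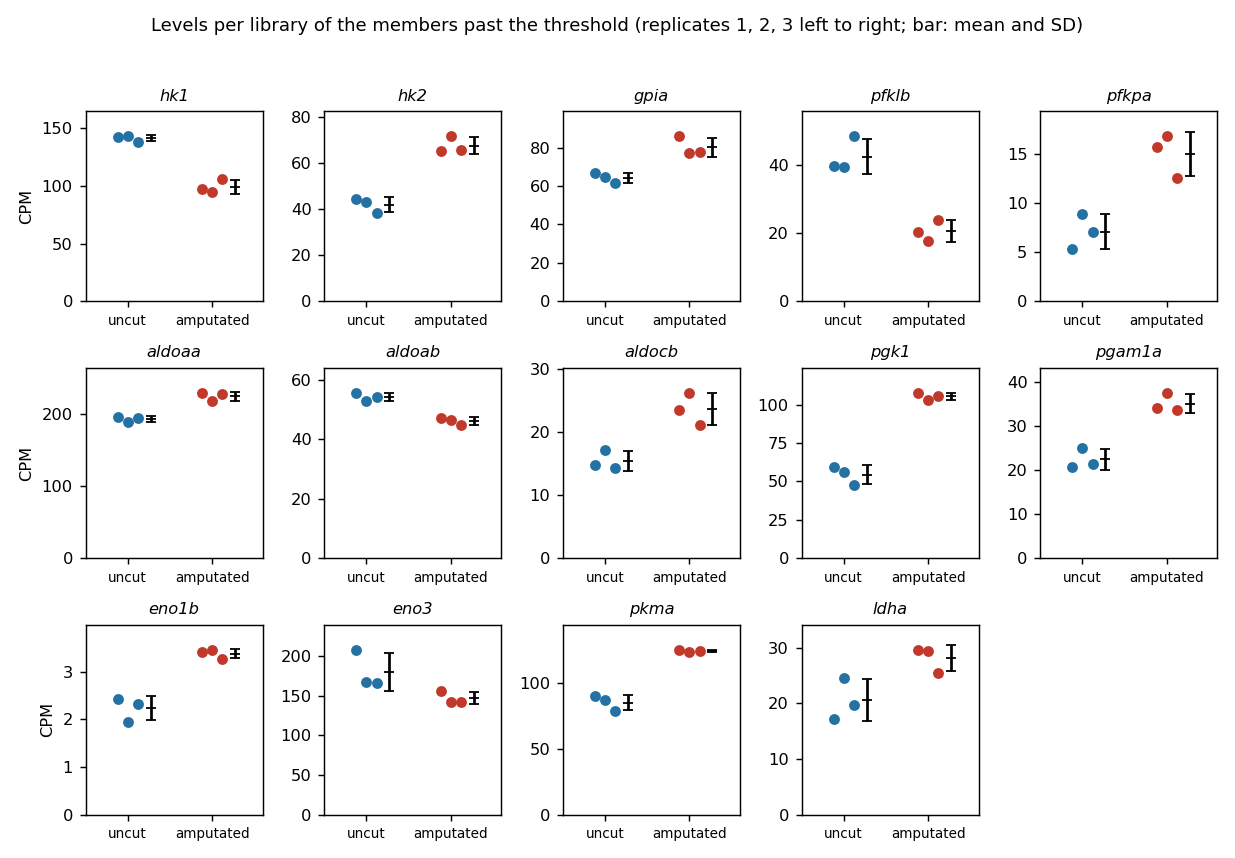
Level in CPM (linear axis from 0) of each of the 14 members past the threshold, with 1 point per library and the mean and SD beside each group of 3. The groups do not overlap for any of the 14: pgk1 stands at 47.3 to 59.0 CPM in uncut and 103.2 to 107.5 CPM in amputated libraries.

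Over the 30 tested members, the CPM of the groups did not overlap for 12 in the higher and 6 in the lower direction, where 26.9% and 24.1% of all tested genes did so. Of the 13 paralog pairs, the log2 ratio was separate between the groups for 8: hk1 and hk2, gpia and gpib, pfkpa and pfkpb, aldoaa and aldoab, tpi1a and tpi1b, pgam1a and pgam1b, eno1a and eno1b, and ldha and ldhba. Among single tested genes 51.1% were separate in 1 direction or the other, and no such share was computed for pairs, so the count of 8 is a description only. No pair passed after adjustment (smallest adjusted exact permutation p = 0.162), which 3 libraries a group could not have reached.

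Summed by step, with TMM scaling, amputated libraries were below all uncut ones for hexokinase, phosphofructokinase, enolase and lactate dehydrogenase, and above all of them for glucose-6-phosphate isomerase, aldolase members, triosephosphate isomerase, phosphoglycerate kinase, phosphoglycerate mutase and pyruvate kinase. The ratio of group means was 1.94 for phosphoglycerate kinase, 1.41 for pyruvate kinase, 1.28 for phosphoglycerate mutase and 1.17 for glucose-6-phosphate isomerase. It was 0.80 for phosphofructokinase, 0.88 for enolase, 0.90 for lactate dehydrogenase and 0.91 for hexokinase. The steps with lower sums depended on the scaling. With library totals alone, an alternative added after seeing the data, hexokinase was higher without overlap (1.09), and the groups overlapped for phosphofructokinase (0.96), enolase (1.05) and lactate dehydrogenase (1.07). The 6 steps with higher sums stayed higher without overlap, at 1.33 to 2.32, and glyceraldehyde-3-phosphate dehydrogenase joined them at 1.204. Over all 33 genes the summed level was 1820 ± 119.9 CPM (SD, n = 3) in uncut and 1889 ± 60.4 CPM (SD, n = 3) in amputated folds, with overlap. As a share of raw counts, with no TMM scaling, the members took 0.158% to 0.174% in uncut and 0.203% to 0.210% in amputated libraries.

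**Figure D4:**
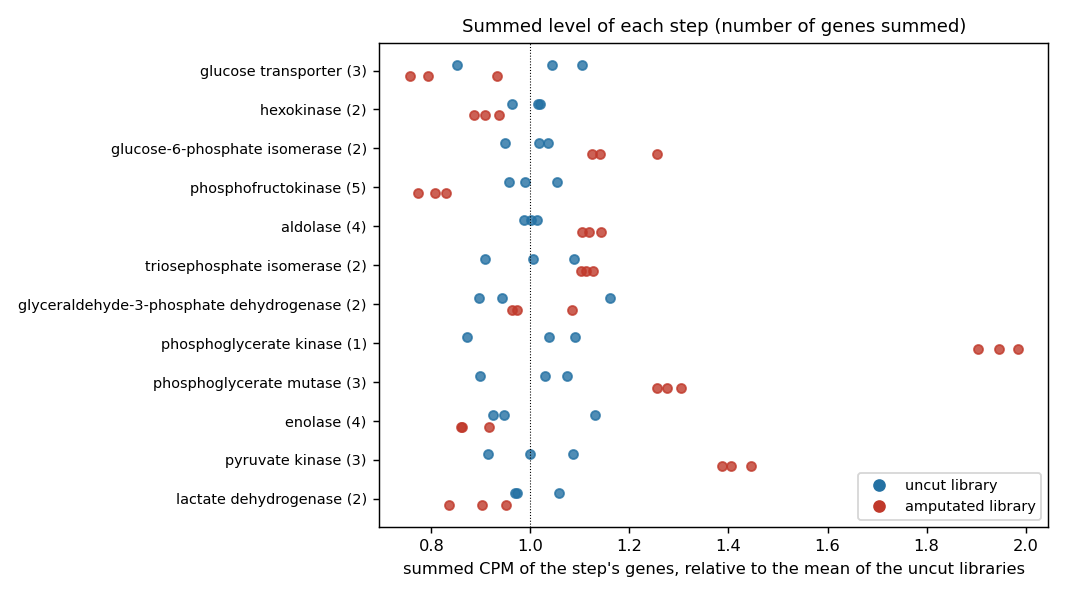
Summed CPM of the members of each step in each library, divided by the mean of the uncut libraries, with blue points for the 3 uncut and red points for the 3 amputated libraries. Phosphoglycerate kinase (ratio of means 1.94) and pyruvate kinase (1.41) lie farthest to the right, and phosphofructokinase (0.80, or 0.96 with overlap under library totals alone) lies to the left of the uncut libraries.

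Genes around the core pathway were read from 9 lists of enzymes, transporters and regulators. The counts of each list stand beside 20.8% higher and 19.6% lower over all tested genes. Those shares belong to the main fit and are no background for counts with library totals alone. Among other glucose transporters and glycolytic isozymes, 2 of 14 rose and 5 fell, with a median log2 fold change of −0.27. The rises were slc2a6 (2.06 ± 0.31), a transporter of lysosomal membranes in mammals, and slc2a8 (0.51 ± 0.15), and the falls included slc2a12 (−0.88 ± 0.18). The counts of this list rest on single libraries: 1 higher and 2 lower without uncut replicate 2 or uncut replicate 3, 1 and 3 without amputated replicate 1, 3 and 2 without amputated replicate 2, and 2 and 3 without amputated replicate 3. For slc2a8 the edgeR adjusted p was 0.053 with uncut replicate 2 dropped, 0.0533 with uncut replicate 3 dropped and 0.0791 with amputated replicate 1 dropped.

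Phosphofructokinase is tuned by fructose-2,6-bisphosphate, made by the PFKFB enzymes. The list of 8 regulators held the PFKFB genes and also tigara and tigarb, which are not PFKFB genes. Of the 8, 1 rose, pfkfb2a, at 0.49 ± 0.16 (edgeR adjusted p = 0.0305), and none fell. No regulator was called when uncut replicate 1 or 2 or amputated replicate 1 or 3 was dropped (pfkfb2a then had an edgeR adjusted p of 0.0758 to 0.11). There were 2 higher when amputated replicate 2 was dropped and 4 with library totals alone. Lactate leaves cells through monocarboxylate transporters. Of 4 tested genes 1 rose, slc16a3 (1.69 ± 0.29, edgeR adjusted p = 0.000653), the counterpart of the lactate exporter MCT4 of glycolytic cells in mammals. It went from 0.66, 0.60 and 0.49 CPM to 1.93, 2.12 and 1.74 CPM, while the more abundant slc16a1b was at −0.11 ± 0.09 (edgeR adjusted p = 0.354).

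The pentose phosphate pathway, which branches off at glucose-6-phosphate to make ribose and NADPH, had the largest share of rises among these lists. Here 7 of 11 tested genes rose and 1 fell, with a median of 0.36, and leaving out any library moved neither count by more than 1.5 times. The phosphoribosyl pyrophosphate synthetase genes prps1a (1.18 ± 0.10) and prps1b (0.65 ± 0.13) and the ribose-5-phosphate isomerase gene rpia (0.83 ± 0.10) rose. The level of prps1a went from 30.3, 36.2 and 30.6 CPM to 71.6, 82.4 and 66.8 CPM.

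Genes that make glucose were read next, with genes that build glycogen or break it down. In gluconeogenesis 4 of 7 tested genes fell and none rose, with a median of −0.74: fbp1a (−1.14 ± 0.12), fbp1b (−1.31 ± 0.26), pck2 (−0.76 ± 0.10) and slc37a4a (−0.60 ± 0.15). With library totals alone 3 were lower and the median was −0.49, and slc37a4a did not pass (−0.35, edgeR adjusted p = 0.0891). The fructose-1,6-bisphosphatase gene fbp1a, which runs the phosphofructokinase step in reverse, went from 153.8, 131.6 and 153.6 CPM to 69.9, 52.9 and 75.5 CPM. In glycogen metabolism 9 of 26 fell and 2 rose, with a median of −0.46. The glycogen synthase gene gys1 fell by 0.99 ± 0.10 (log2 fold change −0.99), the primer gene gyg1b was at −1.10 ± 0.13, and the phosphorylase kinase subunit genes phka1a and phkb were at −0.86 ± 0.10 and −0.75 ± 0.10. With library totals alone this list held 5 lower and 6 higher genes, and without uncut replicate 2, uncut replicate 3 or amputated replicate 1 it held 1 higher gene.

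Pyruvate entry to mitochondria and the tricarboxylic acid cycle were mixed. Of 16 genes of pyruvate transport, pyruvate dehydrogenase and its regulators 2 rose and 4 fell, with a median of −0.17, against 0.08 when libraries were scaled by totals alone (5 higher and 1 lower) and −0.11 when uncut replicate 1 was dropped. The pyruvate carboxylase gene pcxa fell by 0.47 ± 0.08 (log2 fold change −0.47), pdk4 and pdp1 were at −0.48 ± 0.11 and −0.49 ± 0.12, and dlat rose by 0.37 ± 0.07. With the replicate number as a block 7 of these genes were lower, and without uncut replicate 2, uncut replicate 3, amputated replicate 2 or amputated replicate 3 only 1 was higher. Of 21 cycle genes 6 rose, among them sucla2 (0.42 ± 0.08), and 4 fell, among them mdh1aa (−0.45 ± 0.07) and idh1 (−0.34 ± 0.09). These counts became 3 and 2 without uncut replicate 2 or amputated replicate 1, 2 and 3 without uncut replicate 3 (where the median of 0.05 became −0.01; it was 0.11 without uncut replicate 1 and 0.02 without amputated replicate 1), 5 and 2 without amputated replicate 2, and 4 and 2 without amputated replicate 3. With library totals alone, a scaling for which no share over all tested genes was computed, 13 cycle genes were higher and 1 was lower.

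Many glycolytic genes are targets of hypoxia-inducible factor in mammals, so genes of that pathway were read beside the members. Of 27 tested, 3 rose and 9 fell, with a median of −0.25 that was at 0.01 with library totals alone, where 4 were higher and 5 lower. The insulin-like growth factor binding protein gene igfbp1a rose by 2.55 ± 0.21, from 8.04, 9.86 and 6.81 CPM to 57.4, 57.1 and 33.2 CPM. In contrast bnip3 (−0.96 ± 0.17), bnip3lb (−0.68 ± 0.10) and the collagen prolyl hydroxylase gene p4ha1a (−0.63 ± 0.10) fell. The genes of the factors' alpha subunits did not move together. The scarce hif1aa rose by 1.1504 ± 0.3582 (edgeR adjusted p = 0.0224), from 1.12, 0.84 and 0.29 CPM to 2.08, 1.83 and 1.44 CPM, but its call was lost when uncut replicate 2 or 3 or amputated replicate 1 or 2 was dropped (edgeR adjusted p 0.0589 to 0.0749). The far more abundant hif1ab, at 245.4 to 252.9 CPM in uncut and 256.5 to 260.7 CPM in amputated libraries, did not pass (0.06 ± 0.07, edgeR adjusted p = 0.577), but did with library totals alone (0.31, edgeR adjusted p = 0.00346). Of the HIF2 alpha copies, epas1b fell by 0.54 ± 0.12 on the log2 scale (log2 fold change −0.54, edgeR adjusted p = 0.00328), though with library totals alone it missed the threshold (−0.28, edgeR adjusted p = 0.0633). Its copy epas1a was at −0.23 ± 0.11 (edgeR adjusted p = 0.0959) and passed only in the blocked fit among those run (edgeR adjusted p = 0.0111). The related hif1al fell by 0.25 ± 0.08 (log2 fold change −0.25, edgeR adjusted p = 0.0191). That call was lost with library totals alone (0.006) and when uncut replicate 2 or any amputated library was dropped (edgeR adjusted p 0.0537 to 0.0808). The angiogenic factor gene vegfaa was at −0.17 ± 0.13 (edgeR adjusted p = 0.321).

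**Figure D5:**
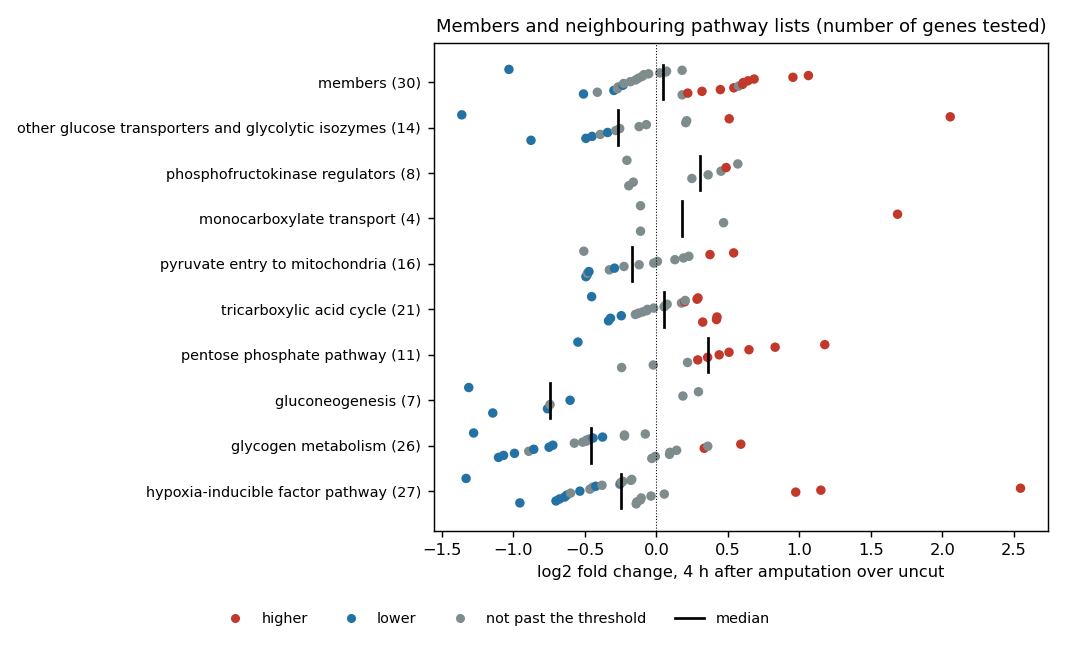
Log2 fold change, amputated over uncut, of the tested genes of the member set and of 9 neighbouring lists, with 1 point per gene and a black line at each median. The medians are −0.74 for gluconeogenesis, −0.46 for glycogen metabolism and 0.36 for the pentose phosphate pathway, and 0.05 for the members.

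Markers of cell types moved in the same samples, where 20.8% of all tested genes were higher and 19.6% were lower. In bulk tissue, fewer cells of a type cannot be told apart from less RNA per cell. Of 30 tested skeletal muscle markers 12 were lower and none higher, and their summed level was 3302 to 3869 CPM in uncut and 2628 to 2959 CPM in amputated libraries, but with library totals alone 2 were lower and 1 higher. The abundant markers atp2a1 and actc1b were both lower (−0.40 ± 0.09 and −0.48 ± 0.13), while tnni2b.2, mylpfb and myoz1b had at most 13 counts in any library. The level of eno3, the muscle-type enolase gene, was lower in the same libraries. The other members described above by a muscle type of mammals did not share 1 direction. Of these, hk2, aldoaa and ldha rose, aldoab fell, and pfkma, pfkmb and pgam2 did not pass. The type names are those of mammals, and which cells of the fold held these transcripts was not measured. Of 12 neutrophil markers 11 were higher, with a summed level of 74.3 to 101.8 CPM in uncut and 187.3 to 270.7 CPM in amputated libraries. For macrophages 10 of 13 were higher and 1 lower, with summed levels of 92.3 to 112.7 and 140.0 to 165.6 CPM. No marker of these lists was at 0 in every library. Their part in the changes of hk2, pfkpa, pgk1, pkma, eno3 and the other members was not tested.

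Many markers of fin mesenchyme and superficial epidermis were lower as well, while those of basal epidermis were mixed. Of 17 fin mesenchyme markers 11 fell, with a summed level of 70617 to 72941 CPM in uncut and 30146 to 34957 CPM in amputated libraries, and with library totals alone 8 were lower and 4 higher. Among 16 superficial epidermis markers 11 fell, but 7 without uncut replicate 1 or amputated replicate 3, 6 without amputated replicate 2 and 5 with library totals alone. Among 14 basal epidermis markers 7 fell and 2 rose, with 4 lower without amputated replicate 3, and the median of −0.23 was at 0.03 with library totals alone. For erythrocytes 0 markers were higher and 1 lower of 10, and for neurons 0 and 2 of 10. For notochord the counts were 1 and 2 of 8, and for ionocytes 2 and 1 of 11. The lower share was 20% for neurons and 25% for notochord, near the 19.6% of all tested genes. The higher share was 18.2% for ionocytes, near the 20.8% of all tested genes. The higher notochord count was 0 without any library other than amputated replicate 1, and the lower one was 1 without any library other than uncut replicate 1. The lower ionocyte count was 0 without any library other than uncut replicate 1. The part of these tissues in the member changes was not tested either.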

How the data were processed

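The deposited table held raw whole-number counts per Ensembl gene for 32266 genes in 6 libraries, and a size-factor normalized signal from the authors, which was not tested. The authors' log2 fold change, Wald score and p-value (raw and adjusted) were deposited too; the values show their direction to be uncut over amputated, so signs are turned round here. The submitters' processing notes name TopHat, Cufflinks and DESeq2, without versions. No source used here names the read counter, the genome build or the annotation.

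Testing of counts used edgeR 4.0.16 (R 4.3.3): filterByExpr (minimum count 10, total 15), TMM scaling, glmQLFit and glmQLFTest with no covariate over 17883 genes, Benjamini-Hochberg adjusted. Standard errors came from the F statistic, as |log2 fold change| / sqrt(F). DESeq2 1.42.0 was an alternative. The procedure was tested on simulated data. Paralog ratios used log2 of counts plus 1 and an exact two-sided permutation test. A single count was worth 0.0436 to 0.0972 CPM, and reads carried no molecular identifiers.

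The members and the 19 lists were chosen with earlier results of these data known. Of 340 list names, 317 were used, and 3 names with several rows were left out. The rule for named genes took all members and up to 4 genes of each pathway list by smallest adjusted p, some of which are not reported here; pfkla, slc16a1b, hif1aa, hif1ab, hif1al, epas1a, epas1b, vegfaa, lpcat3, eif4e2rs1, tsg101a, cox5ab, rpl17, atp2a1, actc1b, tnni2b.2, mylpfb and myoz1b were chosen after their values were seen. Same-numbered replicates deviated together (correlations 0.222, 0.199 and 0.153), so an alternative fit took the replicate number as a block; the pairing comes from the data, not the labels.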

Additional observations from a re-analysis of the deposited data

How the results depend on the processing

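The count of members that rose was 10 and ran from 7 to 11 with a library left out. It was 7 at an adjusted p under 0.01, and 1 with a log2 fold change of at least 1 as well. With library totals alone it was 14, and no share over all tested genes was computed for that scaling. The count of members that fell was 4 and ran from 2 to 4 with a library left out; it was 2 with library totals alone, 2 at an adjusted p under 0.01, 1 with a log2 fold change of at least 1, and 6 with the replicate number as a block. That block changed the call of slc2a1b (−0.27, edgeR adjusted p = 0.0267) and ldhba (−0.23, edgeR adjusted p = 0.0124) and of no other member; for the paralog ratios its sign-flip test over 3 pairs cannot go below 0.25. With library totals alone the sign turned for gpib (0.075), pfkmb (0.13), pfkpb (0.17), aldoab (0.024), gapdh (0.20), pgam2 (0.11), pkmb (0.16) and ldhba (0.028), within the general shift of 0.26. With a library left out the sign turned for some of the members near 0, whose log2 fold changes ran from −0.050 to 0.20 for pfkma, −0.22 to 0.010 for pfkmb, −0.12 to 0.056 for gapdh, −0.064 to 0.16 for gapdhs, −0.020 to 0.14 for pgam1b and −0.31 to 0.23 for pkmb. The same held for the ratios of pfkma to pfkmb (−0.065 to 0.30) and aldoca to aldocb (−0.67 to 0.42). The other causes were not tested. Of 360 refits of single members, 306 kept the direction and side of the threshold, 24 lost a call, 12 gained one and 18 turned sign. Depth limits slc2a1a, aldoca and pklr, which could not be tested, and slc2a3a and eno2, whose standard errors were 0.38 and 0.36. The better covered pkmb had a standard error of 0.23, with 11.1, 6.14 and 6.52 CPM in uncut replicates 1, 2 and 3.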
